A study of Arabidopsis thaliana with 15 samples.

Results

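Transcripts of 10 Arabidopsis genes for nitrate uptake and nitrogen assimilation were followed in seedlings of 5 genotypes. The genes were picked by locus from the 32833 genes of the deposited count table, with earlier results of these data known. All 10 passed the filter on low counts that left 20721 genes tested. The genotypes were the wild type Col-0 (WT), gyf1 and gyf2 as single mutants, and 2 double mutants, gyf1 gyf2-1 and gyf1 gyf2-2. Each was represented by 3 libraries from untreated whole seedlings, 1 week old, grown on MS (Murashige and Skoog) medium that held 1% sucrose, and each RNA preparation started from about 100 mg of tissue. Whether gyf2-1 and gyf2-2 denote alleles or lines is left unsaid in the labels, as is which of them the single mutant carries and which loci are mutated, so the mutations were not checked in the transcripts here. Sequencing is described as done in duplicate, although there were 3 libraries per genotype, and all were used here. No label ties the libraries of a genotype to different cultures, and the p-values speak only for the spread among these libraries.

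Nitrate enters root cells through transporters of the NRT1 and NRT2 families, nitrate reductase turns it into nitrite in the cytosol, and nitrite reductase turns nitrite into ammonium in the plastid. Glutamine synthetase and ferredoxin-dependent glutamate synthase then build ammonium into glutamine and glutamate, and asparagine synthetase makes asparagine, a form in which nitrogen is carried and stored. Glutamate dehydrogenase works mainly in the other direction in plants and releases ammonium and a carbon skeleton from glutamate, and its transcripts are known to rise when carbon is short.

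The loci, on TAIR10, were NRT1.1 (AT1G12110, chromosome 1, 4105223 to 4109601), NRT2.1 (AT1G08090, chromosome 1, 2524023 to 2526322), NIA1 (AT1G77760, chromosome 1, 29235721 to 29239484), NIA2 (AT1G37130, chromosome 1, 14158452 to 14161938) and NIR1 (AT2G15620, chromosome 2, 6810395 to 6812941). The other 5 lay on chromosome 5 and were GLN2 (AT5G35630, 13830429 to 13833542), GLU1 (AT5G04140, 1129785 to 1138488), GDH1 (AT5G18170, 6006035 to 6008726), GDH2 (AT5G07440, 2355759 to 2358241) and ASN2 (AT5G65010, 25969035 to 25972575). All are protein-coding, and NIA1 alone is on the minus strand. GLU1 overlaps AT5G04150 and GDH1 overlaps AT5G18180, each on the opposite strand. How reads in the overlaps were counted depends on the strand setting of the counting, for which the sources used here give nothing. AT5G04150 had 1 to 12 counts per library, beside 21973 to 31235 for GLU1. AT5G18180 had 6 to 27, beside 1011 to 1795 for GDH1.

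The 250 bases upstream of the gene start are shown for the 6 genes whose transcripts were called in at least 1 double mutant, so that the genes that rose and those that fell can be compared by eye. The sequences are from RefSeq (TAIR10.1), written 5′ to 3′ on the strand of the gene and ending at the base before its start. Capitals mark 3 motifs, each searched on both strands: the G-box, whose letters are CACGTG, the binding core of the HRS1 family, which reads GAATC, and a bZIP motif spelled ACTCAT.
NRT2.1: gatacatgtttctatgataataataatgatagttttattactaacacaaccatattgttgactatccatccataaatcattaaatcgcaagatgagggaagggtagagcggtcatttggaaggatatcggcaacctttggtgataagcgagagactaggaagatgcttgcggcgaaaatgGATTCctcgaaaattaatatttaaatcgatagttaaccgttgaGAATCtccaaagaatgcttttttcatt
NIA1: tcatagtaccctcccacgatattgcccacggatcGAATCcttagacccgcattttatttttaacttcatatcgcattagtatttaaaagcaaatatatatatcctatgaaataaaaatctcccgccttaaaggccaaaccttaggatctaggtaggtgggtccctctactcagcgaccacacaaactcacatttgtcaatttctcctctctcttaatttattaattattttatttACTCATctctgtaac
NIA2: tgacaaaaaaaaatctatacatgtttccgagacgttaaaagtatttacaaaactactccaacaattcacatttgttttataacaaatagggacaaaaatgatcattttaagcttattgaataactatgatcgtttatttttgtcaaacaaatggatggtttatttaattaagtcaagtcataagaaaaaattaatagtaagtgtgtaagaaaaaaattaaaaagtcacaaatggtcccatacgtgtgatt
NIR1: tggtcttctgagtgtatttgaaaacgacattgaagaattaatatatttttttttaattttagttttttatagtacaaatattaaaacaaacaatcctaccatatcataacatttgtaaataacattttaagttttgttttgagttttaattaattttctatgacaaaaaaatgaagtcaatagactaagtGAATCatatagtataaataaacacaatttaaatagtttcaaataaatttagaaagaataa
GDH1: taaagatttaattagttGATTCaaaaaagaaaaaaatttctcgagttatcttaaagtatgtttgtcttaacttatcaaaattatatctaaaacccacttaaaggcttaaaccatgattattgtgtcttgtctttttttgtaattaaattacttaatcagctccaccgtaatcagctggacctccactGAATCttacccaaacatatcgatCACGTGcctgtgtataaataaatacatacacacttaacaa
GDH2: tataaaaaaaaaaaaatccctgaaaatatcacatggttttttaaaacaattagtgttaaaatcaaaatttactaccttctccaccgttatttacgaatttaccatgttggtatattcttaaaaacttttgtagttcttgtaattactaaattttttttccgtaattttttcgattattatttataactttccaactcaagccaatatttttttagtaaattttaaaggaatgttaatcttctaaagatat
The windows were chr1:2523773-2524022 (plus strand), chr1:29239485-29239734 (minus strand), chr1:14158202-14158451 (plus strand), chr2:6810145-6810394 (plus strand), chr5:6005785-6006034 (plus strand) and chr5:2355509-2355758 (plus strand). HRS1 and its HHO relatives are repressors in nitrate and phosphate responses, the G-box is bound by many bZIP and bHLH factors, and the bZIP motif is bound by factors of the group that holds bZIP1. The NRT2.1 window held GAATC at 70 to 66 and at 27 to 23 bases before the start, and that of GDH1 at 233 to 229 and at 63 to 59. NIR1 had it at 60 to 56 bases before its start and NIA1 at 216 to 212. GDH1 also had a G-box at 40 to 35, and NIA1 had ACTCAT at 15 to 10. The NIA2 and GDH2 windows held none of the 3 motifs. Among the genes not shown, GLU1 had GAATC at 91 to 87 and NRT1.1 had ACTCAT at 128 to 123. GLN2 and ASN2 had none of the 3. Among the same windows of 20218 tested protein-coding genes, 38.9% held GAATC, 12% ACTCAT and 7.23% the G-box. The nitrate-responsive element known from the NIR1 promoter, searched on both strands, was in 0.124% of windows and in none of the 10 genes', which says only that these letters are not within these 250 bases.

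Libraries held 16567801 to 24681140 counts. Some stood apart from the others of their genotype. By the chi-square of paired libraries, divided by the number of genes, WT replicate 1 gave 9.72 and 9.7 where the other WT pair gave 4.16. The values were 6.62 and 7.69 with gyf1 gyf2-1 replicate 1 against 3.1, and 7.53 and 6.99 with gyf1 gyf2-2 replicate 2 against 3.51. With gyf2 replicate 3 they were 8.32 and 5.29 against 4.19. That case was the least clear, as gyf2 replicate 2 gave 5.29 with replicate 3 and 4.19 with replicate 1. The 4 comparisons with WT share the WT libraries. A gene was called at an adjusted p below 0.05 (edgeR quasi-likelihood test, Benjamini-Hochberg adjustment over all 20721 genes). Statements that libraries of some genotypes lay above or below those of others are descriptions. The share of all genes for which this holds is not given here.

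Of the 10 genes, 0 were called in gyf1, where 0.521% of all genes were. DESeq2 also called 0, and 3 had an unadjusted p below 0.05. In gyf2, 2 rose and none fell, against 2.5% of all genes called, 1.99% as higher. In gyf1 gyf2-1, 4 rose and 1 fell, against 25.9% called in all, 14.2% higher and 11.7% lower. In gyf1 gyf2-2, 4 rose and 2 fell, against 27.7%, of which 15.1% higher and 12.6% lower. As the genes and lists were chosen with earlier results known, such shares, here and below, are context and not a test. The 4 that rose in both double mutants were the nitrate reductase genes NIA1 and NIA2 and the glutamate dehydrogenase genes GDH1 and GDH2. The nitrite reductase gene NIR1 fell in both, and the transporter gene NRT2.1 fell in gyf1 gyf2-2. The median log2 fold change of the 10 was 0.14 in gyf1 gyf2-1 and −0.04 in gyf1 gyf2-2, beside −0.01 over all genes in each. In whole seedlings, fewer cells of a type and less RNA per cell cannot be told apart.

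**Figure D1:**
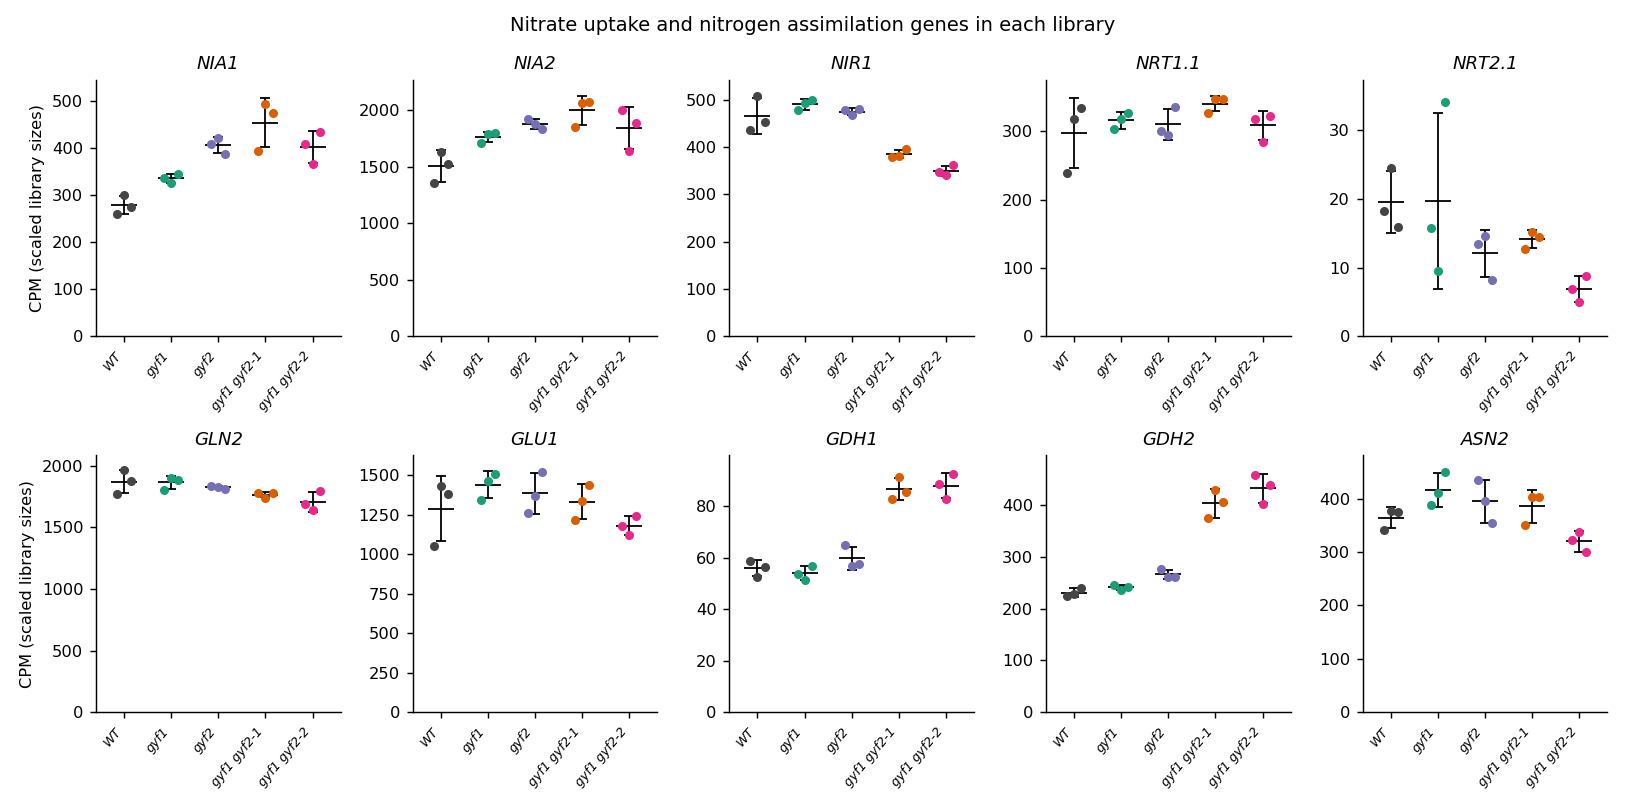
Level of each of the 10 genes (y axes, CPM with scaled library sizes, each from 0) in the 3 libraries of each genotype (points), with the mean (long line) and SD (bars). GDH1 and GDH2 lie higher in every library of both double mutants than in any other library, and NIR1 lower.

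NRT1.1 encodes the dual-affinity nitrate transporter that also senses nitrate. Its level (in CPM, counts scaled to library size) was 239.0, 317.5 and 334.1 in WT. Libraries of gyf1 gave 302.3, 318.0 and 327.0 and those of gyf2 299.9, 293.8 and 335.1, whereas gyf1 gyf2-1 libraries had 327.0, 346.9 and 346.5 and gyf1 gyf2-2 libraries 318.0, 284.5 and 322.2. The WT range overlapped every other genotype's, and its lowest value was replicate 1. Log2 fold changes against WT were 0.09, 0.06, 0.20 and 0.05 in the same order (SE 0.09 in each), and none was called (adjusted p = 0.11 in gyf1 gyf2-1). When WT replicate 1 was left out they were −0.05, −0.07, 0.06 and −0.08, and without WT replicate 3 the gyf1 gyf2-1 value was 0.29 and called (adjusted p = 0.0215).

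NRT2.1 encodes the main high-affinity nitrate transporter of roots. It had 18.3, 24.4 and 15.8 CPM in WT. In libraries of gyf1 it was at 15.7, 9.4 and 34.0 and in those of gyf2 at 13.4, 14.6 and 8.2, whereas gyf1 gyf2-1 libraries had 12.6, 15.2 and 14.5 and gyf1 gyf2-2 libraries 6.8, 5.0 and 8.8. All libraries of gyf2 and of both double mutants were below every WT library, while the gyf1 libraries spread beyond WT on both sides. NRT2.1 fell by 1.51 on the log2 scale in gyf1 gyf2-2 (SE 0.45, adjusted p = 0.0287). The call was lost without WT replicate 1 (−1.55, adjusted p = 0.056), WT replicate 2 (−1.31, 0.0913), gyf1 gyf2-2 replicate 1 (0.0815) or gyf1 gyf2-2 replicate 2 (−1.31, 0.0924). Changes were −0.69 for gyf2 (adjusted p = 0.516) and −0.47 for gyf1 gyf2-1 (adjusted p = 0.454), each with an SE of 0.42. Neither was called, although the libraries of both lay below WT. With only the groups compared in the fit, the gyf1 gyf2-1 value was −0.47 and called (adjusted p = 0.0232). The value in gyf1 was 0.01 (SE 0.40).

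NRT2.1 works with NRT3.1, a small membrane partner that it needs for transport. NRT3.1 had 64.7 ± 3.81 CPM in WT (mean ± SD, n = 3 here and below), 64.1 ± 4.16 in gyf1 gyf2-1 and 57.8 ± 6.74 in gyf1 gyf2-2, with changes of −0.01 and −0.16 that were not called. The close relative NRT2.2 was listed at 0 to 2 counts per library and NRT2.4, a transporter of starved roots, at 0 to 5, so neither was tested. Of 2062 stretches of 50 bases in the NRT2.1 transcript, 174 (8.44%) also occur in NRT2.2. NRT2.5, the high-affinity transporter of long-term starvation, had 4.33 ± 0.688 CPM in WT and changes of 0.22 and −0.09 in the double mutants, not called. Other NRT2 genes are given after their values were seen. In gyf1 gyf2-2, NRT2.3 fell by 1.02 (SE 0.31, adjusted p = 0.0138) and NRT2.6 by 1.45 (SE 0.43, adjusted p = 0.0109). In gyf1 gyf2-1 they were at −0.68 and −0.36, not called. NRT2.7 was at 0.04 and 0.09 in the double mutants, not called.

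NIA1 and NIA2 encode the 2 nitrate reductases, of which NIA2 had the higher level per length, at 467 FPKM (fragments per kilobase and sequencing depth, as deposited) against 87.7 in WT. NIA1 had 260.4, 299.0 and 275.1 CPM in WT. The libraries of gyf1 held 335.6, 324.9 and 345.0 and those of gyf2 408.1, 420.3 and 387.0, whereas gyf1 gyf2-1 libraries had 393.4, 492.4 and 473.9 and gyf1 gyf2-2 libraries 407.5, 366.3 and 432.4. Every library of every mutant was above every WT library. With an SE of 0.08 in each comparison, NIA1 rose on the log2 scale by 0.54 in gyf2 (adjusted p = 1.79e-05). The rise was 0.70 in gyf1 gyf2-1 (adjusted p = 4.87e-08), and 0.53 was found for gyf1 gyf2-2 (adjusted p = 3.97e-06). In gyf1 the change was 0.27 (SE 0.08, adjusted p = 0.146) and was not called. Without WT replicate 1 the 3 changes were 0.50, 0.66 and 0.49, and without the library of each mutant that stood apart they were 0.58, 0.80 and 0.60. All stayed called.

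NIA2 had 1356.7, 1632.4 and 1527.5 CPM in WT. Libraries of gyf1 gave 1712.5, 1785.1 and 1796.1 and those of gyf2 1920.9, 1881.0 and 1832.5, whereas gyf1 gyf2-1 libraries had 1852.7, 2064.5 and 2073.3 and gyf1 gyf2-2 libraries 1997.2, 1636.8 and 1885.9. The lowest gyf1 gyf2-2 library, replicate 2, was just above the highest WT library. Again on the log2 scale, with an SE of 0.07 throughout, it rose by 0.32 in gyf2 (adjusted p = 0.00874). The double mutants gave 0.41 (gyf1 gyf2-1, adjusted p = 9.8e-05) and 0.29 (gyf1 gyf2-2, adjusted p = 0.00301). Without WT replicate 1 the gyf2 value was 0.25 and no longer called (adjusted p = 0.0801), while those of the double mutants were 0.34 and 0.22 and still called. Without the mutant's own library that stood apart the 3 values were 0.34, 0.46 and 0.37, all called. The 2 transcripts share no stretch of 50 bases (0 of 3106), and across the 15 libraries their log2 CPM had a Pearson r of 0.926, a description over libraries that share genotypes.

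NIR1 encodes the plastid nitrite reductase, which uses the nitrite that NIA1 and NIA2 make. It had 436.7, 508.0 and 452.3 CPM in WT. In libraries of gyf1 it was at 477.3, 494.0 and 500.0 and in those of gyf2 at 478.1, 467.0 and 480.0, whereas gyf1 gyf2-1 libraries had 378.4, 382.1 and 395.2 and gyf1 gyf2-2 libraries 346.4, 340.5 and 361.5. All 6 double mutant libraries were below all 9 others. NIR1 fell by 0.27 on the log2 scale in gyf1 gyf2-1 (SE 0.06, adjusted p = 0.00135), and for gyf1 gyf2-2 it fell by 0.41 (SE 0.06, adjusted p = 6.55e-06). Its changes in gyf1 and gyf2 were 0.07 and 0.03, not called. Without WT replicate 1 the double mutants' values were −0.32 and −0.46, and without their own libraries that stood apart −0.26 and −0.39, all called.

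The summed FPKM of NIA1 and NIA2 over that of NIR1, a ratio chosen after the values were seen and given with no test, was 2.63 ± 0.0983 in WT. It was 2.94 ± 0.00691 for gyf1 and 3.30 ± 0.111 for gyf2, and the double mutants had 4.36 ± 0.265 (gyf1 gyf2-1) and 4.40 ± 0.363 (gyf1 gyf2-2). It ran from 2.54 to 2.73 in the WT libraries, and from 4.07 to 4.59 and from 4.04 to 4.76 in those of the double mutants. NIA1 made up 15.8 ± 0.441% of the summed nitrate reductase FPKM in WT and 18.0 ± 0.459% in gyf2. The double mutants had 18.7 ± 0.890% and 18.2 ± 0.909%.

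**Figure D2:**
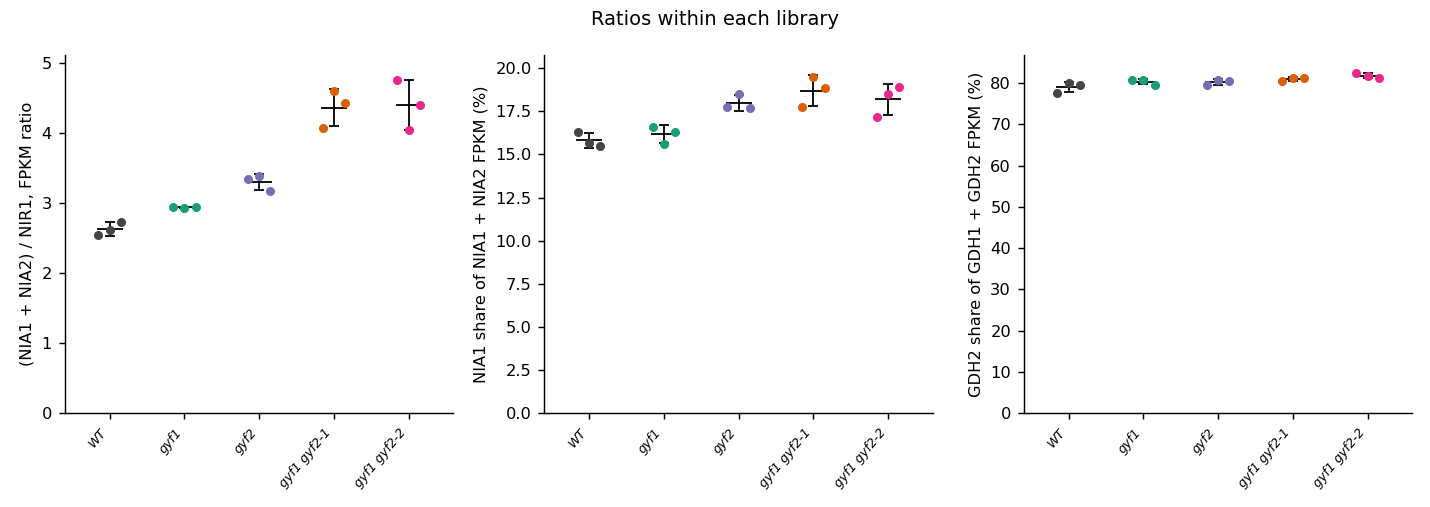
Ratios of deposited FPKM within each library (points), with the mean and SD of each genotype: nitrate reductase (NIA1 + NIA2) to NIR1 on the left, the NIA1 share of nitrate reductase in the middle and the GDH2 share of GDH1 + GDH2 on the right (percent). The first ratio is at most 2.73 in WT and at least 4.04 in the double mutants.

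GLN2, the plastid glutamine synthetase, had the highest level per length of the 10, at 886 ± 45.4 FPKM in WT. Its range was 1772 to 1964 CPM in WT. Libraries of gyf1 spanned 1806 to 1904 and those of gyf2 1815 to 1834, while gyf1 gyf2-1 spanned 1742 to 1777 and gyf1 gyf2-2 1641 to 1794. Both double mutants overlapped WT, and the changes of −0.09 and −0.13 (adjusted p = 0.299 and 0.0884) were not called. Without WT replicate 1 the gyf1 gyf2-2 value was −0.17 and called (adjusted p = 0.0424), and by DESeq2 it was −0.13 and called (adjusted p = 0.0393).

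GLU1, the leaf ferredoxin-dependent glutamate synthase, ran from 1050 to 1433 CPM in WT. Libraries of gyf1 spanned 1343 to 1507 and those of gyf2 1260 to 1521, while gyf1 gyf2-1 spanned 1216 to 1438 and gyf1 gyf2-2 1120 to 1240. Its lowest library was WT replicate 1. Log2 fold changes were 0.16, 0.10, 0.05 and −0.12, none called. Without WT replicate 1 they were 0.03, −0.02, −0.08 and −0.25, and the last was called (adjusted p = 0.0158).

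GDH1 and GDH2 encode the mitochondrial glutamate dehydrogenases. GDH1 had 58.9, 52.7 and 56.3 CPM in WT. The libraries of gyf1 held 53.7, 51.5 and 56.9 and those of gyf2 65.0, 56.8 and 57.7, whereas gyf1 gyf2-1 libraries had 83.0, 91.3 and 85.5 and gyf1 gyf2-2 libraries 88.6, 82.8 and 92.6. The double mutants were apart from the other genotypes and overlapped each other. GDH1 rose by a log2 fold change of 0.63 in gyf1 gyf2-1 (SE 0.07, adjusted p = 1.17e-07) and, for gyf1 gyf2-2, 0.65 (SE 0.07, adjusted p = 4.22e-08). Its values in gyf1 and gyf2 were −0.05 and 0.10, not called. Leaving out WT replicate 1 gave 0.67 and 0.69 in the double mutants, and leaving out their own libraries that stood apart gave 0.66 and 0.70.

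GDH2 had 223.6, 228.9 and 239.6 CPM in WT. Libraries of gyf1 gave 244.9, 236.2 and 241.9 and those of gyf2 275.6, 260.5 and 261.5, whereas gyf1 gyf2-1 libraries had 374.6, 428.9 and 405.1 and gyf1 gyf2-2 libraries 456.9, 402.2 and 437.7. All gyf2 libraries were above WT and gyf1, and all double mutant libraries were above those of gyf2. GDH2 rose by a log2 fold change of 0.80 in gyf1 gyf2-1 (SE 0.06, adjusted p = 1.24e-10) and, for gyf1 gyf2-2, 0.91 (SE 0.06, adjusted p = 8.04e-12). In gyf2 the change was 0.21 (SE 0.06, adjusted p = 0.0972) and not called, but DESeq2 called it (0.21, adjusted p = 0.0355), as did edgeR with library totals only (0.23, adjusted p = 0.0462). Leaving out WT replicate 1 gave 0.78 and 0.88 in the double mutants, and leaving out their own libraries that stood apart gave 0.85 and 0.96. GDH2 made up 79.1 ± 1.2% of the summed GDH1 and GDH2 FPKM in WT, and 81.0 ± 0.403% and 81.8 ± 0.660% in the double mutants. GDH3, the last gene of the family, was listed at 2 to 19 counts per library, and its changes of −0.28 and 0.17 (SE 0.56 and 0.52) were not called. GDH1 and GDH2 share no stretch of 50 bases, while GDH1 and GDH3 share 0.555% of theirs.

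ASN2 encodes an asparagine synthetase that responds to ammonium and is expressed in light-grown leaves, whereas ASN1 is the dark-induced and sugar-repressed gene of the family. ASN2 had 341.0, 377.8 and 375.1 CPM in WT. In libraries of gyf1 it was at 387.6, 409.9 and 450.5 and in those of gyf2 at 435.1, 396.5 and 354.1, whereas gyf1 gyf2-1 libraries had 350.7, 403.1 and 402.4 and gyf1 gyf2-2 libraries 322.9, 338.5 and 299.6. The gyf1 gyf2-2 libraries lay below all WT libraries, and those of gyf1 above. No change against WT was called (0.19, 0.12, 0.08 and −0.19, the last with adjusted p = 0.0706). In gyf1 gyf2-2 it was called without WT replicate 1 (−0.23, adjusted p = 0.0353), without gyf1 gyf2-2 replicate 2 (−0.23, adjusted p = 0.0483) and with no low-count filter (−0.19, adjusted p = 0.0466). ASN1 had 37.7 ± 2.83 CPM in WT, with 29.1 to 31.6 for gyf1 and 24.8 to 36.4 for gyf2. The double mutants had 47.3 to 55.3 (gyf1 gyf2-1) and 41.0 to 59.8 (gyf1 gyf2-2). It rose by 0.43 in both double mutants (adjusted p = 0.024 and 0.0204), and leaving out single libraries ended both calls, with adjusted p up to 0.111 and 0.0992. ASN3 had 39.8 ± 1.92 CPM in WT and values of −0.10 and −0.22, the second called (adjusted p = 0.0255) and lost without any of 4 single libraries (WT replicates 1 and 2, gyf1 gyf2-2 replicates 1 and 3).

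**Figure D3:**
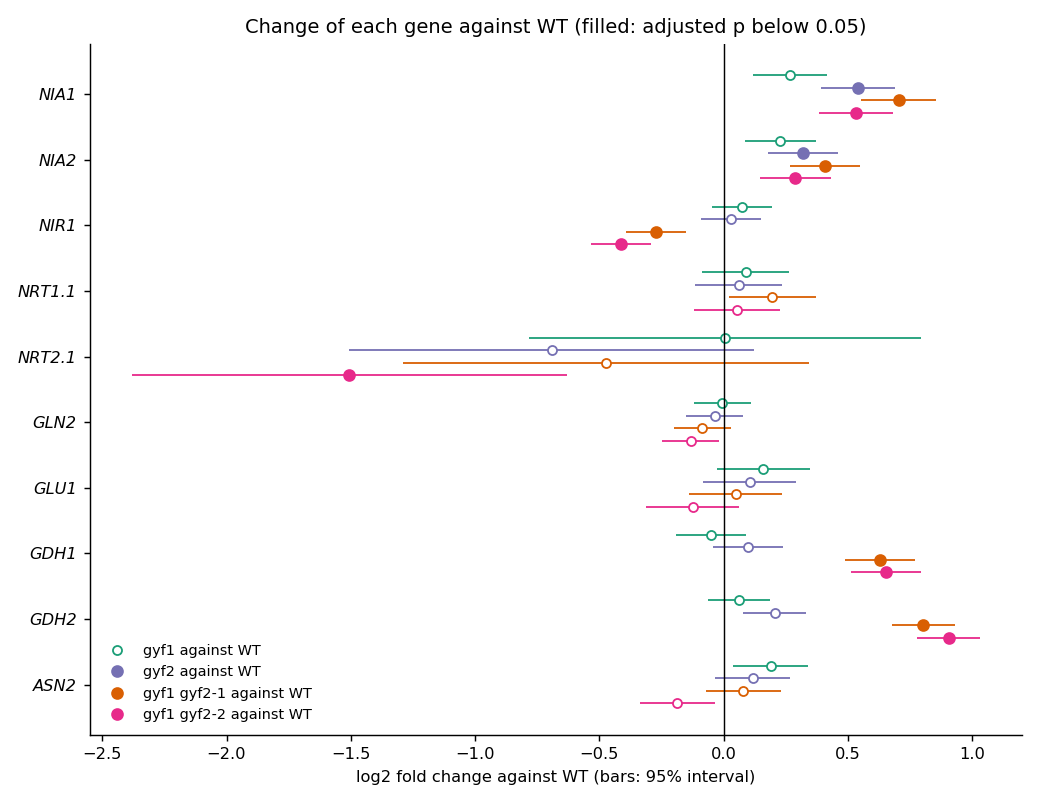
Log2 fold change of each gene against WT (x axis) in the 4 mutants (colours), with bars for the 95% interval and filled points where the adjusted p is below 0.05. NIA1, NIA2, GDH1 and GDH2 lie to the right of 0 and NIR1 to the left in both double mutants, at −0.27 and −0.41.

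By length-scaled level, the WT order was GLN2, NIA2, GLU1 (233 FPKM), NIR1 (211), ASN2 (163), NRT1.1 (134), GDH2 (114), NIA1, GDH1 (30.1) and NRT2.1 (9.18). GLU1 and NIR1 overlapped between WT libraries, as did NRT1.1 and GDH2, and the other neighbours did not. In the double mutants GDH2 took rank 4 instead of 7, at 199.0 ± 13.7 FPKM in gyf1 gyf2-1 and 213.1 ± 14.0 in gyf1 gyf2-2. It lay above NIR1 in every library of both lines, and overlapped GLU1 in gyf1 gyf2-2 only.

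The double mutants were next set against each single mutant, taking both lines at equal weight. Against gyf1, 3 genes were higher and 2 lower, where 25.5% of all genes were called, 14.3% higher and 11.2% lower. NIA1 was higher (0.35, SE 0.07, adjusted p = 2.22e-04), as were GDH1 (0.69, SE 0.06, adjusted p = 1.98e-09) and GDH2 (0.79, SE 0.06, adjusted p = 2.08e-11). NIR1 was lower (−0.42, SE 0.05, adjusted p = 5.21e-07), and so was ASN2 (−0.24, SE 0.07, adjusted p = 0.00655). The ASN2 call was lost without gyf1 replicate 3 (−0.18, adjusted p = 0.0759). For ASN2 the libraries of gyf1 and gyf1 gyf2-1 overlapped. Against WT it was at 0.08 in gyf1 gyf2-1 and −0.19 in gyf1 gyf2-2. Against gyf2, 2 were higher and 1 lower, where 21% of all genes were called, 12.2% higher and 8.86% lower. These were GDH1 (0.54, SE 0.06, adjusted p = 2.65e-07), GDH2 (0.65, SE 0.06, adjusted p = 2.42e-09) and NIR1 (−0.37, SE 0.05, adjusted p = 5.4e-06). The nitrate reductase genes differed from gyf2 by 0.08 for NIA1 (95% interval −0.05 to 0.20) and 0.03 for NIA2 (−0.09 to 0.15), and neither was called. Between the 2 double mutant lines, 0 of the 10 were called, against 0.232% of all genes (0.0724% as lower), 0 by DESeq2, and 4 had an unadjusted p below 0.05. When only those 2 groups were fitted, 1 was called, NRT2.1, lower in gyf1 gyf2-2 (−1.04, adjusted p = 0.00212).

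Non-additivity, by how much the double mutants' mean log2 change exceeds both single mutants' changes added up, was called for 4 of the 10 genes, against 7.2% of all genes, 4.85% above the sum and 2.35% below. The labels do not say which gyf2 mutation the single mutant carries, so it may not match both double mutant lines. GDH1 was above the sum by 0.59 (SE 0.10, adjusted p = 1.71e-04) and GDH2 by 0.59 (SE 0.09, adjusted p = 4.47e-05). NIR1 was below it, at −0.45 (SE 0.08, adjusted p = 6.27e-04), and ASN2 at −0.36 (SE 0.10, adjusted p = 0.0272). The ASN2 call was lost without any of 5 single libraries (WT replicate 1, gyf1 replicates 2 and 3, gyf2 replicates 1 and 2), with values of −0.29 to −0.37 and adjusted p of 0.0523 to 0.0913. Against WT, ASN2 was at 0.08 in gyf1 gyf2-1 and −0.19 in gyf1 gyf2-2, so its mean joins lines of opposite sign. NIA1 and NIA2 were at −0.19 (95% interval −0.39 to 0.00334) and −0.20 (−0.39 to −0.01), not called.

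**Figure D4:**
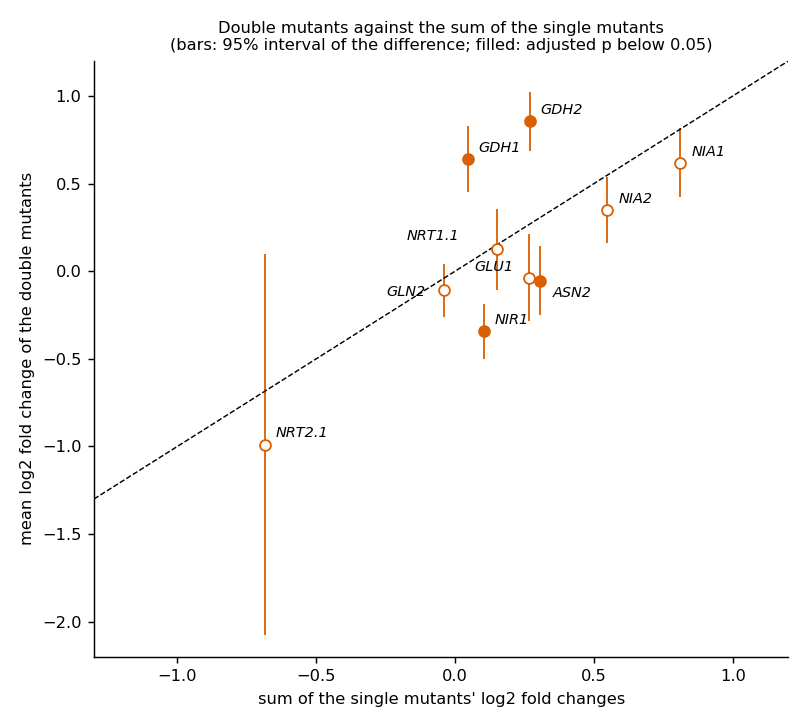
Mean log2 fold change of the double mutants (y axis) against the sum of the changes in gyf1 and gyf2 (x axis) for each of the 10 genes, with bars for the 95% interval of the difference and the line of equality (dashed). Filled points have an adjusted p below 0.05: GDH1 and GDH2 lie 0.59 above the line, NIR1 0.45 below it (non-additivity −0.45) and ASN2 at −0.36.

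Of 22 other nitrate transporter and anion channel genes in the table, 19 were tested. edgeR called 0 in gyf1 and 0 in gyf2, where 7 and 5 had an unadjusted p below 0.05 and DESeq2 called 1 and 0. In gyf1 gyf2-1, 7 rose and 1 fell, and in gyf1 gyf2-2, 5 rose and 4 fell, beside 25.9% and 27.7% of all genes called, with medians of 0.04 and 0.06 where all genes had −0.01. Between the lines, 5 rose in both and 1 fell in both. NRT1.7, which loads nitrate into the phloem of old leaves, had 74.1 ± 5.77 CPM in WT and rose by 0.60 and 0.50 on the log2 scale (adjusted p = 1.79e-07 and 2.62e-06). NRT1.2, a low-affinity uptake transporter, rose by 0.42 and 0.48, and NRT1.9, which moves nitrate in root phloem, by 0.44 and 0.51. NRT1.5, which loads nitrate into the root xylem, fell from 94.7 ± 2.00 CPM to 77.2 ± 0.594 and 72.5 ± 7.19 (−0.29 and −0.39, adjusted p = 0.00185 and 7.28e-05). The gyf1 gyf2-1 count of 8 was 5 without WT replicate 2, without gyf1 gyf2-1 replicate 2 or without gyf1 gyf2-1 replicate 3. Of 6 ammonium transporter genes, 4 were tested. In each double mutant 1 was called, near the share of all genes (25.9% and 27.7%). The genes named were chosen after the values were seen. AMT2;1 rose by 0.25 in gyf1 gyf2-1 (adjusted p = 0.0123) and AMT1;3 fell by 0.56 in gyf1 gyf2-2 (adjusted p = 2.24e-04). The gyf1 gyf2-2 count was 2 without WT replicate 1 or gyf1 gyf2-2 replicate 2.

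Of 17 other genes of glutamine, glutamate, aspartate and asparagine metabolism, edgeR and DESeq2 both called 0 in either single mutant, and 2 in each had an unadjusted p below 0.05. In gyf1 gyf2-1, 4 rose and 1 fell, and in gyf1 gyf2-2, 6 rose and 3 fell, with medians of 0.08 and 0.13. The share called over all genes was 25.9% and 27.7%, so the first count is near that background. ASPGB1, an asparaginase that releases ammonium from asparagine, fell from 12.0 ± 0.761 CPM in WT to 5.98 ± 0.623 and 6.21 ± 0.271 (adjusted p = 1.72e-04 and 2.08e-04). GLN1;1, a cytosolic glutamine synthetase, rose by 0.29 and 0.36 (adjusted p = 0.00128 and 9.05e-05). GLN1;2 had −0.11 and −0.25, GLN1;3 0.08 and 0.18, and GLN1;4 0.24 and 0.69, each called in gyf1 gyf2-2 only among these comparisons with WT. GLU2 (0.26 and 0.13) and the NADH-dependent synthase GLT1 (0.04 and −0.24) were not called. The aspartate aminotransferases ASP3 (0.24 and 0.25) and ASP2 (0.29 and 0.21) rose in both. In gyf1 gyf2-2, single libraries left out ended the calls of GLN1;2 (WT replicate 2 or gyf1 gyf2-2 replicate 2), GLN1;3 and ASP2 (4 libraries each) and ASP3 (gyf1 gyf2-2 replicate 3). The gyf1 gyf2-2 count of 9 was 5 without WT replicate 2, 5 without gyf1 gyf2-2 replicate 1 and 4 without gyf1 gyf2-2 replicate 3.

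Of 12 genes for the cofactors and reductant of both reductases, edgeR and DESeq2 called 0 in gyf1, where 2 had an unadjusted p below 0.05. For gyf2 the count was 1, beside 2.5% of all genes, and for the double mutants 2 (gyf1 gyf2-1) and 4 (gyf1 gyf2-2), beside 25.9% and 27.7%, with 1, the root ferredoxin reductase gene RFNR2, lower in both double mutants (−0.18 in each, adjusted p = 0.0405 and 0.0362). Both RFNR2 calls were lost without single libraries, with adjusted p up to 0.208 and 0.158. The count went down to 0 for gyf2 (without WT replicate 1 or 3, or gyf2 replicate 1 or 2), to 0 in gyf1 gyf2-1 (without WT replicate 2 or gyf1 gyf2-1 replicate 3) and to 1 in gyf1 gyf2-2 (without WT replicate 2 or gyf1 gyf2-2 replicate 1).

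Of 38 tested regulators of nitrate and nitrogen responses, 1 rose in gyf1 (DESeq2 called 3), and 7 rose and 1 fell in gyf2. Over all genes, 0.521% were called in gyf1, and in gyf2 1.99% as higher and 0.516% as lower. For gyf1 gyf2-1 there were 13 that rose and 6 that fell, and for gyf1 gyf2-2 there were 13 and 7. Over all genes, 14.2% and 15.1% were called as higher in these lines and 11.7% and 12.6% as lower. The same 13 rose and the same 6 fell in both double mutants. BT2, a BTB-domain protein known to repress NRT2.1 and NRT2.4, had 66.4 ± 7.42 CPM in WT. The single mutants had 101.8 ± 11.5 (gyf1) and 160.9 ± 20.1 (gyf2), and the double mutants 208.4 ± 5.89 (gyf1 gyf2-1) and 202.1 ± 7.93 (gyf1 gyf2-2). On the log2 scale it rose by 0.62 in gyf1 (adjusted p = 3.57e-04) and by 1.28 in gyf2 (adjusted p = 3.42e-10). The rise in the double mutants was 1.65 (adjusted p = 1.6e-12) and 1.60 (adjusted p = 1.67e-12). bZIP1, a transcription factor of sugar and nitrogen responses, spanned 6.26 to 7.60 CPM in WT and 11.1 to 16.0 in gyf2. Its range was 19.3 to 20.4 in gyf1 gyf2-1 and 21.3 to 23.3 for gyf1 gyf2-2, and it rose by 0.94, 1.54 and 1.71 on the log2 scale in these 3 mutants.

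CPK32, a calcium-dependent kinase that phosphorylates NLP7, rose by 0.64 in gyf2 and by 0.94 and 1.08 in the double mutants. NLP7 itself, the central nitrate-sensing transcription factor, rose by 0.48 (adjusted p = 5.85e-05) and 0.38 (adjusted p = 6.73e-04) in the double mutants. HRS1, a repressor that binds GAATC, had 19.8 ± 1.58 CPM in WT, 37.9 ± 2.12 in gyf1 gyf2-1 and 38.2 ± 2.45 in gyf1 gyf2-2, a rise of 0.94 and 0.95 (adjusted p = 4.15e-09 and 2.22e-09). Some others were picked after their values were seen. HHO2 and HHO3, of the same family, rose by 0.56 and 0.68 in gyf1 gyf2-1 and by 0.77 and 0.72 in gyf1 gyf2-2. CIPK23, the kinase that phosphorylates NRT1.1, rose by 0.50 and 0.65. HY5, a light-response factor that acts on NRT2.1 and nitrate reductase genes, fell by 0.53 and 0.55. CEPD1, a shoot-to-root signal known to raise NRT2.1, fell by 0.83 and 0.81. LBD37 rose by 0.30 and 0.31 while its relative LBD39, like it a repressor of nitrate-responsive genes, fell by 0.34 and 0.36. LBD38, another relative, rose by 0.24 in gyf1 gyf2-1 (adjusted p = 0.0186) and was also called higher in gyf1 gyf2-2. Opposite to NLP7, NLP2 fell by 0.35 in gyf1 gyf2-1 (adjusted p = 0.0124) and by 0.45 in gyf1 gyf2-2 (adjusted p = 0.00133). Opposite to bZIP1, bZIP11 fell by 0.39 in gyf2 (adjusted p = 0.0281) and by 0.49 in gyf1 gyf2-1 (adjusted p = 6.8e-04). CEPR1 rose by 0.30 in gyf1 gyf2-1 (adjusted p = 0.0214).

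**Figure D5:**
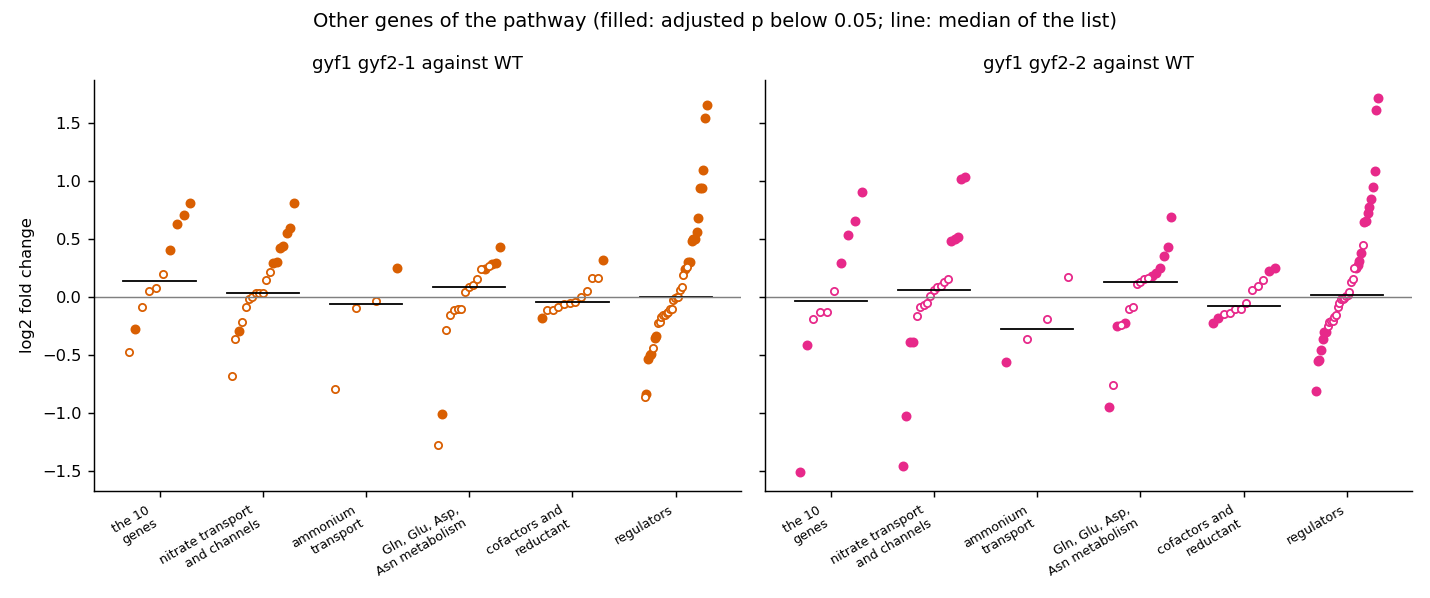
Log2 fold change against WT (y axis) of the 10 genes and of each gene list of the pathway, in gyf1 gyf2-1 (left) and gyf1 gyf2-2 (right), with filled points at an adjusted p below 0.05 and a line at each list's median. List medians lie between −0.27 and 0.14 while single regulators reach 1.65 and 1.71.

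Tissue markers were read as a rough guide to makeup, in which fewer cells of a type and less RNA per cell cannot be told apart. All 17 root markers and all 16 green mesophyll markers had counts in every library. Summed root marker CPM was 2509 to 2951 in WT, with 3140 to 3995 for gyf1 and 2883 to 3239 for gyf2. The double mutants had 3733 to 3838 (gyf1 gyf2-1) and 3739 to 3960 (gyf1 gyf2-2). Without PYK10, an abundant root glucosidase gene that rose by 0.49 and 0.52, the sums were 219 to 246, 248 to 266, 236 to 257, 223 to 246 and 221 to 232 in the same order. PYK10 was also called higher in gyf1 (0.35, adjusted p = 0.0283), a call lost without WT replicate 1, WT replicate 2 or gyf1 replicate 3 and with only the groups compared. In each double mutant 3 root markers rose (PYK10, HKT1 and, at log2 changes of 0.54 and 0.52, SKOR) and none fell, and the gyf1 gyf2-2 count was 5 without gyf1 gyf2-2 replicate 1. The SKOR calls were each lost without 1 library (gyf1 gyf2-1 replicate 3 and gyf1 gyf2-2 replicate 2). Summed mesophyll marker CPM was 58539 to 61164 in WT, with 54294 to 56071 for gyf1 and 53301 to 58618 for gyf2. The double mutants had 59390 to 64398 (gyf1 gyf2-1) and 55855 to 63999 (gyf1 gyf2-2). Of its genes, 1 rose and 5 fell in each double mutant. Over all genes 25.9% and 27.7% were called in these lines, which is above the share of the root markers called. The small rubisco subunit gene RBCS1A rose by 0.24 and 0.22, while the carbonic anhydrase gene CA1 fell by 0.32 and 0.39, the antenna protein gene LHCB4.1 by 0.23 and 0.23, and PSBP-1, of photosystem II, by 0.21 and 0.19. Leaving out single libraries ended the LHCB4.1 and PSBP-1 calls in both lines and that of RBCS1A in gyf1 gyf2-2, and without gyf1 gyf2-2 replicate 2 LHCB4.1 was at −0.13 there (adjusted p = 0.12). The gyf1 gyf2-1 count of 6 was 3 without WT replicate 3, and 2 without gyf1 gyf2-1 replicate 2 or 3, and that of gyf1 gyf2-2 was 3 without WT replicate 3 or gyf1 gyf2-2 replicate 2, and 1 with only the groups compared in the fit. The part of tissue makeup in the changes of the 10 genes was not tested.

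Across the 15 libraries, likeness was measured by Pearson's r of log2 CPM, and the 3 nearest genes are named for each. The pattern of GDH2 was most like that of XTH24 (0.993), a cell wall enzyme gene, followed by AT4G19420 (0.988) and AT4G19160 (0.987). GDH1 was nearest to SARD1 (0.978), an immune transcription factor gene, to GDH2 (0.978) and to AT5G16880 (0.977). NIR1 was nearest to the chaperone gene HSC70-1 (0.975), to MDAR6 (0.975) and to MTO1 (0.973), the cystathionine synthase gene of methionine synthesis. NIA1 was nearest to KCS8 (0.952), AT5G14120 (0.951) and LNG2 (0.938), and NIA2 to CER9 (0.944), AT4G32640 (0.933) and AT1G33590 (0.927). For NRT2.1 the genes were AT1G05650 (0.913), FLS5 (0.879) and GSR2 (0.863), which is another name of the cytosolic glutamine synthetase GLN1;2. For NRT1.1 they were ABCC1 (0.93), AT4G32760 (0.927) and BRI1 (0.925). GLN2 was nearest to PHT1;2 (0.921), AT2G40400 (0.92) and AT1G45688 (0.92), GLU1 to AT2G05920 (0.967), ATMS1 (0.963) and FUG1 (0.956), and ASN2 to AT3G52500 (0.9), AT5G11460 (0.887) and EMB2730 (0.868). These values describe likeness over libraries that share 5 genotypes, and carry no test.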

How the data were processed

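For 15 strand-specific mRNA libraries the authors deposited whole-number gene counts, not normalized, beside gene FPKM values. Tools named in the submitters' processing notes, with no role or order, are HTSeq 0.6.1p1 and HISAT2 2.0.4, on TAIR10. The sources used here do not say how the deposited FPKM values were scaled. Of 32547 loci matched to RefSeq TAIR10.1, 99.95% have the same start and end, and sequences were read from that assembly.

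Low counts were removed by filterByExpr (edgeR 4.0.16 in R 4.3.3), library sizes were scaled by TMM, and all 15 libraries were fitted in 1 robust quasi-likelihood model with a mean per genotype (common biological coefficient of variation 7.94%). The 8 comparisons were tested by quasi-likelihood F tests with Benjamini-Hochberg adjustment over 20721 genes. The standard error is the absolute log2 fold change over the square root of F. CPM uses scaled library sizes and FPKM is used only for levels between genes and for ratios. The scripts were tested on simulated data.

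Alternatives were the DESeq2 1.42.0 Wald test, DESeq2 size factors, library totals only, no low-count filter, a replicate block, only the groups compared, and each library left out. The 10 genes and the gene lists were chosen with earlier results of these data known. Genes named are the 10, their nearest relatives and partners, the regulator NLP7, up to 4 genes of each list called in both double mutants with the lowest larger adjusted p, and the 3 genes most correlated with each of the 10. Any other gene is said to be chosen after its values were seen.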

Additional observations from a re-analysis of the deposited data

Results flagged for a closer look

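For 4 of the 10 genes the double mutants differed from the sum of the changes in gyf1 and gyf2, by a test of that difference itself (edgeR quasi-likelihood with Benjamini-Hochberg adjustment, 3 libraries per genotype). GDH1 was at 0.59 on the log2 scale (adjusted p = 1.71e-04) and GDH2 at 0.59 (adjusted p = 4.47e-05). NIR1 was at −0.45 (adjusted p = 6.27e-04). ASN2 was at −0.36 (adjusted p = 0.0272), and its call depended on single libraries. The labels do not say which gyf2 mutation the single mutant carries, so it may not match both double mutant lines.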

How the results depend on the processing

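Of 25 called changes of the 10 genes over the 8 comparisons, 21 kept call and direction under every alternative run, and 4 lost the call under at least 1 (NIA2 in gyf2, NRT2.1 in gyf1 gyf2-2, and ASN2 against gyf1 and in non-additivity). Of 55 changes that were not called, 13 were called under at least 1. No called change turned its direction. Among 1601 recomputed values of uncalled changes, 64 had another sign. These 2 numbers cover the 10 genes together with other named genes, which were recomputed against WT only, and were not split. Leaving out 1 library at a time, the number of the 10 genes called was 1 to 2 in gyf2, 5 to 6 in gyf1 gyf2-1, 5 to 8 in gyf1 gyf2-2, 4 to 6 against gyf1, 3 to 4 against gyf2, 3 to 4 for non-additivity, and 0 in gyf1 and between the double mutant lines. With only the groups compared in the fit, the count between the lines was 1. Other scalings moved the median of all genes by less than 0.1 on the log2 scale.

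No label says that the replicate numbers pair the libraries. Deviations of same-numbered libraries had r of −0.07 to 0.194 over 30 pairs, with a median of 0.03 and 5 above 0.1. For the 60 other pairs r was −0.187 to 0.11, with a median of −0.02 and 2 above 0.1. With the replicate number as a block, more of all genes were called in each comparison, for example 714 against 519 in gyf2. Of the 10 genes, the block gave 6 calls against WT for each double mutant, 2 for gyf2 and 0 for gyf1. For the mean of the double mutants it gave 6 against gyf1 and 4 against gyf2, with 0 between the lines and 5 for non-additivity. The calls added by the block were NRT1.1 in gyf1 gyf2-1 (0.20, adjusted p = 0.0373), GLU1 against gyf1 (−0.20, adjusted p = 0.00907), ASN2 against gyf2 (−0.17, adjusted p = 0.0473) and GLU1 in non-additivity (−0.31, adjusted p = 0.0234). NRT2.1, at 5.0 to 34.0 CPM, had the largest standard errors of the 10, and its gyf1 libraries ranged from 185 to 640 counts.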
